A study of Mus musculus with 40 samples.

Results

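H3K9me2 was examined in 3 clusters of zinc finger genes of the mouse genome in fully grown germinal vesicle oocytes. The clusters were taken as fixed intervals, chr2:175000001-178000000, chr4:145000001-148000000 and chr13:65000001-67800000, and the regions measured were the 10 kb windows that start in an interval and hold at least 1 read in any of the 6 H3K9me2 libraries. There were 627 such windows, 133 on chromosome 2, 216 on chromosome 4 and 278 on chromosome 13, of 255057 windows with a read in the genome. Within the intervals, position and the presence of a read chose the windows, not the size of any difference. The intervals themselves were chosen with earlier results of these data known. The oocytes were pooled, 100 to 200 per sample, from mice aged 22 to 25 days, and every pool carried 1 of 3 genotypes: Control, G9a cKO (conditional deletion of G9a) or G9a-Glp cDKO (conditional deletion of G9a and of Glp). H3K9me2 was measured by low-input native chromatin immunoprecipitation in 2 libraries per genotype. RNA was measured in 11 libraries, 3 Control and 3 G9a cKO libraries whose titles begin with GKAO, and 3 Control and 2 cDKO libraries whose titles begin with GKAQ. The labels do not name the Cre driver or the parts of the genes removed, nor say whether libraries of a genotype came from separate animals, so the p-values measure the spread between these libraries, which may be technical.

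G9A and GLP, encoded by Ehmt2 and Ehmt1, form a complex that places mono- and dimethylation on lysine 9 of histone H3, a mark of silent chromatin. Zinc finger gene clusters arose by repeated duplication, so neighbouring genes can be close copies of each other. Many of their proteins carry a KRAB domain, which binds TRIM28 and through it brings repressive histone methylation to transposable elements, and in many somatic cells the 3' exons of these genes themselves carry methylated lysine 9. By gene symbol (Zfp, Zscan, Zkscan or Rex2), 50 of the 281 RefSeq genes that start in the intervals (GRCm38.p6) are zinc finger genes, 8 on chromosome 2, 17 on chromosome 4 and 25 on chromosome 13. A further 166 have a provisional Gm symbol, 19 are Vmn2r pseudogenes and 17 are other named protein-coding genes.

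The intervals span 880 positions of 10 kb, of which 842 are in the table (the other 38, on chromosome 4, were not analysed here), and 215 of the 842 (25.5%) lack reads in all 6 libraries. The windows without reads lie mainly on chromosome 2, where they are 167 of 300 (55.7%) and run for up to 460 kb without a break. On chromosome 4 they are 46 of 262 (17.6%), and on chromosome 13 they are 2 of 280 (0.714%). Of the 627 windows, 13 held 1 read in all, 32 held 2 to 10 reads, 582 held more than 10 reads, and 506 had a read in every library.

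The promoters give a partial view of how alike the sequences in the windows without reads are. RefSeq promoters of 300 bases, from 250 bases before to 50 bases after the gene start (GRCm38.p6), were found for 126 of the 281 genes, 149 promoters in all. Of the 24 promoters in windows without reads, 15 differed from the promoter of another gene of the intervals by at most 15 single-base edits, and the median distance to the nearest was 12.5 edits. The 67 promoters in windows with over 100 reads had a median distance of 137 edits, and 1 of them lay within 15 edits of another. The 52 promoters in windows with 1 to 100 reads lay between, with a median of 59 edits and 14 within 15 edits. Of the 24 promoters without reads, which belong to 19 genes, 23 are on chromosome 2, so the read classes also differ by chromosome. On chromosome 2 alone, 15 of these 23 lay within 15 edits, beside 7 of 20 in windows with 1 to 100 reads. The promoters of Zfp966 and Zfp967 were identical, as were those of Gm4724, Gm2026, Gm14434 and Gm14308, and all 6 lie in chromosome 2 windows without a read. Zfp968 and Zfp973, both on the plus strand of chromosome 2 and also in windows without a read, differ by 1 base. Their 250 bases before the gene start, chr2:175372186-175372435 and chr2:176670272-176670521 (plus strand, GRCm38.p6), are printed 5′ to 3′ to show how close such copies are, and the capital marks the base that differs, A106G counted from 1 at the left end of the Zfp968 sequence.
Zfp968: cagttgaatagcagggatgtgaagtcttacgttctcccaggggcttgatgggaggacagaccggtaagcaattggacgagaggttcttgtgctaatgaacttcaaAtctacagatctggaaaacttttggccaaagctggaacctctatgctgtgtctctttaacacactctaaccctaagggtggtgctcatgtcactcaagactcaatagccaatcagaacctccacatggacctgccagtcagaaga
Zfp973: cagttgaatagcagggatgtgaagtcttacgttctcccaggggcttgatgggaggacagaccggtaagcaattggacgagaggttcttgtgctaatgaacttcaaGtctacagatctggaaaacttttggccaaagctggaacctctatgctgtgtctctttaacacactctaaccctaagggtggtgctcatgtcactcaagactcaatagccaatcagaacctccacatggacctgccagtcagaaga

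On chromosome 4 the promoters of Zfp600 and Rex2 are 2 edits apart, and each lies in a window with 46 reads over the 6 libraries. Zfp600 is the gene of the clusters whose RNA was called in both mutants, and its stretch at chr4:146156577-146156826 (plus strand) is printed with that of Rex2 at chr4:147021600-147021849 (plus strand) as a pair of close copies in windows that do hold reads.
Zfp600: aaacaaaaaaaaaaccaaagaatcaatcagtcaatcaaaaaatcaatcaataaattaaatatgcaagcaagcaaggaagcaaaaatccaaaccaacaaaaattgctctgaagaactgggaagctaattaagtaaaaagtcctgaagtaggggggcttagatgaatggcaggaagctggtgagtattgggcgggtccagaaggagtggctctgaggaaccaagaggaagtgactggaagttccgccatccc
Rex2: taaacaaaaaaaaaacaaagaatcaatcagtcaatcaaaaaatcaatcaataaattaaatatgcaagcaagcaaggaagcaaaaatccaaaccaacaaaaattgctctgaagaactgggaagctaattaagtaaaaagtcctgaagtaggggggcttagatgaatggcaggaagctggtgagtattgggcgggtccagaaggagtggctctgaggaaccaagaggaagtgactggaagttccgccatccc

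H3K9me2 in the clusters was higher in both mutants than in Control, and higher in G9a cKO than in cDKO. Levels are given as reads per window with a read divided by the genome mean of that library, so 1 is the genome mean. They are relative: a change in the total amount of H3K9me2 cannot be seen in them. On chromosome 2 the Control libraries had levels of 0.365 and 0.337, the G9a cKO libraries 0.972 and 0.935, and the cDKO libraries 0.653 and 0.541. The 3 genotypes did not overlap there. The means were 0.351 ± 0.02, 0.954 ± 0.026 and 0.597 ± 0.079 (SD, n = 2 each), a 2.72-fold higher level in G9a cKO and a 1.7-fold higher level in cDKO than in Control. On chromosome 4 the levels were 0.666 and 0.651 in Control, 1.13 and 1.11 in the G9a cKO libraries and 1.01 and 0.911 in the cDKO libraries, which is 1.7-fold and 1.46-fold. On chromosome 13 they were 0.684 and 0.668 in Control, 1.21 and 1.07 in the G9a cKO libraries and 0.914 and 0.774 in the cDKO libraries, which is 1.68-fold and 1.25-fold. In all 3 clusters the order of the groups was therefore Control, cDKO, G9a cKO, with no overlap between libraries. An exact two-sided permutation test of 2 against 2 libraries cannot go below p = 0.33, and each of these comparisons gave p = 0.33.

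**Figure D1:**
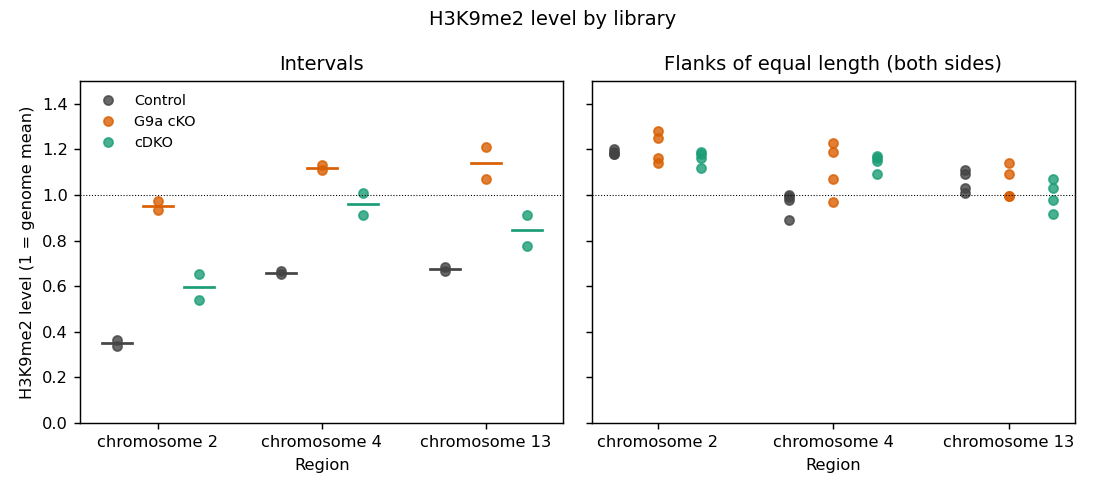
H3K9me2 level of each library (y axis, 1 = genome mean) in the 3 intervals (left, bar: mean of 2 libraries) and in the flanks of the same length on both sides (right, 2 points per library). In the intervals the 2 Control libraries lie lowest, at 0.337 to 0.684, and the 2 G9a cKO libraries highest, at 0.935 to 1.21.

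The flanks differed less between genotypes. Over the flanks of all 3 intervals together, 1759 windows, the level was 1.08 and 1.06 in Control, 1.14 and 1.11 in the G9a cKO libraries and 1.1 and 1.11 in the cDKO libraries, a 1.05-fold and a 1.03-fold difference. The flanks of chromosome 4 moved most: the one before the interval was 1.22-fold higher in G9a cKO and 1.12-fold higher in cDKO than in Control, and the one after it 1.09-fold and 1.25-fold higher. The share of all reads of a library that fell in the intervals was 0.15% and 0.146% in Control, 0.278% and 0.259% in the G9a cKO libraries and 0.219% and 0.19% in those of cDKO. The libraries differ in depth: 7048784 and 19128881 reads in Control, 1857144 and 1109191 in the G9a cKO libraries and 1723142 and 1881848 in the cDKO libraries, so that a window of the clusters held on average 17.0 and 45.1 reads in Control but 4.64 to 8.37 in the mutants. Depth thus moved with genotype, and values after thinning all libraries to the shallowest are given with the calls.

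Tests were made over 100 kb bins, which collect more reads than single windows, with limma and Benjamini-Hochberg adjustment (called at an adjusted p under 0.05). They covered all 25549 bins of the genome that had a read in at least 50% of the windows listed for them. Some bins remained thin: chr4:147500001-147600000 had 1 listed window, and chr4:146600001-146700000 had 2 to 6 reads per mutant library. Of the 88 bins of the intervals, 67 could be tested. In G9a cKO, 50 of the 67 were called higher and 0 lower, where 14.6% of all bins tested were called higher and 15.1% lower. In cDKO, 22 were called higher and 0 lower, where 4.95% of all bins tested were called higher and 1.64% lower. The median log2 difference of the 67 bins was 1.06 in G9a cKO and 0.51 in cDKO, beside -0.06 and -0.03 over all bins. Both G9a cKO libraries lay above both Controls in 56 of the 67 bins, where 30.6% of all bins did, and both cDKO libraries in 51, where 30.4% did. Both comparisons use the same Control libraries. With every library thinned to the depth of the shallowest, 40 bins were called in G9a cKO and 16 in cDKO. The shares of all bins called after thinning are not given here, so these 2 counts cannot be set against the genome. The G9a cKO count was 32 without Control replicate 2, and the cDKO count was 2 without either Control library and 0 without either cDKO library, so most of the cDKO calls at this scale were lost without any 1 of these 4 libraries.

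**Figure D2:**
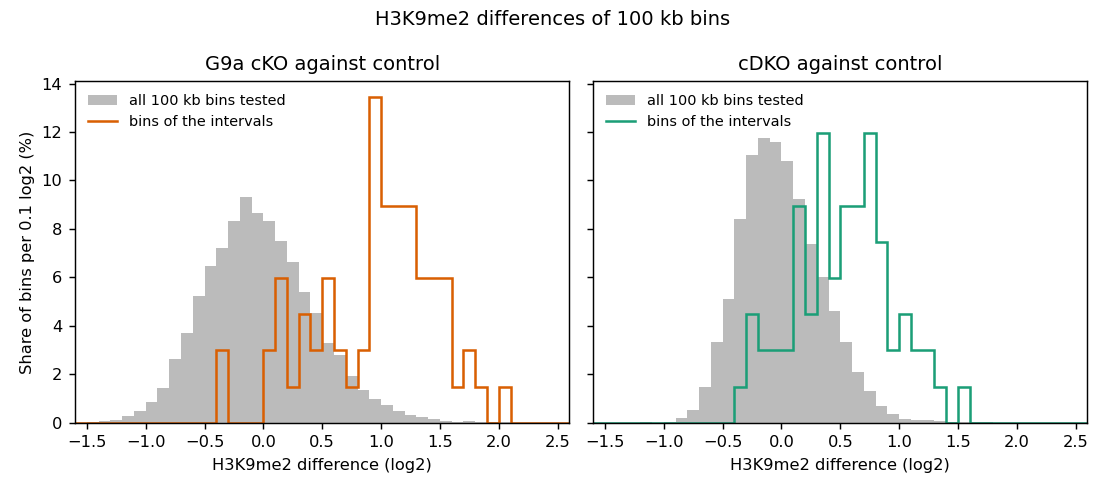
Distribution of the log2 difference in H3K9me2 (x axis) over all 25549 bins of 100 kb tested (grey) and over the 67 bins of the intervals (line), as percent of bins per 0.1 log2 (y axis). The bins of the intervals centre on 1.06 in G9a cKO and on 0.51 in cDKO, to the right of the genome, whose medians are -0.06 and -0.03.

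On chromosome 2 all 13 bins tested were called higher in G9a cKO, and 6 of them in cDKO. The largest difference of the clusters was in chr2:176700001-176800000, with levels of 0.251 and 0.226 in Control, 1.04 and 0.864 in the G9a cKO libraries and 0.613 and 0.443 in the cDKO libraries. Both mutants lay above both Controls in this bin, by 2.0 on the log2 scale in G9a cKO (SE 0.23, limma adjusted p = 0.00079) and by 1.14 in cDKO (SE 0.23, adjusted p = 0.0246). Only 24 bins of the genome had a larger increase in G9a cKO. The bin chr2:177800001-177900000 had 0.412 and 0.41 in Control, 1.46 and 1.36 in the G9a cKO libraries and 1.02 and 0.886 in the cDKO libraries. It rose by 1.79 in G9a cKO (SE 0.16, limma adjusted p = 0.000635) and by 1.22 in cDKO (SE 0.16, adjusted p = 0.0116). In chr2:177400001-177500000, which holds Zfp970, the levels were 0.423 and 0.403 in Control, 1.24 and 1.3 in the G9a cKO libraries and 0.657 and 0.685 in the cDKO libraries. This bin went from under the genome mean to above it in G9a cKO.

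On chromosome 4, 17 of 26 bins were called higher in G9a cKO and 11 in cDKO. The bin chr4:147700001-147800000, which holds Zfp534 and Zfp984, had levels of 0.783 and 0.712 in Control, 1.74 and 2.02 in the G9a cKO libraries and 1.64 and 1.53 in the cDKO libraries. The increase was 1.33 in G9a cKO (SE 0.15, limma adjusted p = 0.000688) and 1.09 in cDKO (SE 0.15, adjusted p = 0.0116). In chr4:145600001-145700000, with Zfp980, the levels were 0.738 and 0.659 in Control, 2.01 and 2.05 in the G9a cKO libraries and 1.33 and 1.11 in the cDKO libraries. The bin chr4:147600001-147700000, with Zfp979 and Zfp534, had among the lowest Control levels, 0.134 and 0.138, and 0.523 and 0.455 in the G9a cKO libraries and 0.438 and 0.353 in the cDKO libraries. It rose by 1.86 in G9a cKO (SE 0.27, limma adjusted p = 0.00137) and by 1.54 in cDKO (SE 0.27, adjusted p = 0.0167), the largest cDKO increase among the 67 bins.

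On chromosome 13, 20 of 28 bins were called higher in G9a cKO and 5 in cDKO. This cluster has 2 parts with different Control levels. From 65.4 to 66.8 Mb, where Zfp640 is the named zinc finger gene, bins had Control levels of 0.169 to 0.551. From 67.0 to 67.8 Mb, which holds the named genes from Zfp712 to Zfp493, the levels were 0.907 to 1.21, near the genome mean. The bin chr13:67300001-67400000, with Zfp457, Zfp595, Zfp953, Zfp456 and Zfp429, had levels of 1.27 and 1.14 in Control, 2.32 and 2.32 in the G9a cKO libraries and 1.74 and 1.42 in the cDKO libraries. It rose by 0.95 in G9a cKO (SE 0.14, limma adjusted p = 0.00143), while the cDKO difference of 0.39 did not pass the test (SE 0.14, adjusted p = 0.103). In chr13:67600001-67700000, with Zfp729b, Zfp729a and Zfp738, the levels were 0.924 and 0.89 in Control, 2.36 and 1.96 in the G9a cKO libraries and 1.55 and 1.1 in the cDKO libraries. The increase in G9a cKO was 1.25 (SE 0.17, limma adjusted p = 0.00124). A low Control level was thus not shared by all bins that rose.

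**Figure D3:**
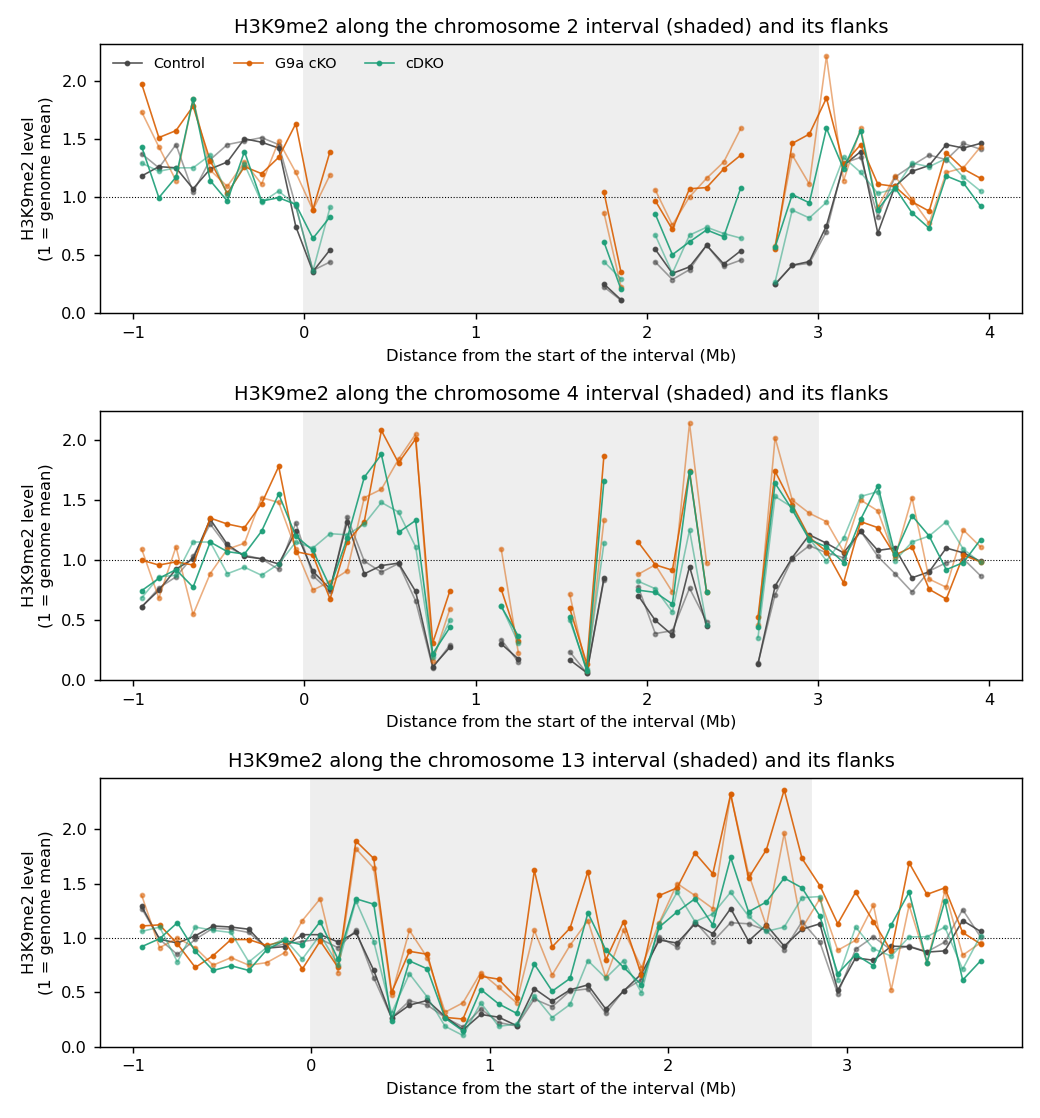
H3K9me2 level (y axis, 1 = genome mean) in 100 kb steps along each interval (shaded) and 1 Mb to each side, against the distance from the start of the interval in Mb (x axis). There is a line for each of the 2 libraries per genotype, and steps with under 5 windows with a read are left blank. Control lies at or below the mutants over most of the shaded parts, and single steps of the flanks also differ between genotypes, as next to the interval's end on chromosome 2.

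The bins were grouped by the RefSeq genes in them, where provisional symbols such as Gm and pseudogenes did not count as named genes. Of 27 bins with a zinc finger gene and no other named gene, 21 were called higher in G9a cKO and 11 in cDKO, with median differences of 1.08 and 0.65. In 28 bins there was neither a zinc finger symbol nor another named protein-coding gene, and all 28 hold Gm genes. Of these, 24 and 8 were called, with medians of 1.19 and 0.55. All 4 bins with both a zinc finger gene and another named gene were called in G9a cKO and 2 in cDKO. Of 8 bins with other named genes only, 1 was called, in both mutants, and the medians were 0.08 and 0.14. The 8 hold among others Vps13d, a lipid transfer protein gene, Tnfrsf1b and Tnfrsf8, receptor genes of the tumour necrosis factor family, and Mfn2, a mitochondrial fusion gene. In chr4:145200001-145300000, with Tnfrsf1b and Tnfrsf8, the difference was -0.38 in G9a cKO (SE 0.15, limma adjusted p = 0.0725). The 176 bins of the flanks had a median difference of 0.02 in G9a cKO and 0.06 in cDKO, and 13.1% were called higher in G9a cKO. These classes were described and not tested against each other.

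**Figure D4:**
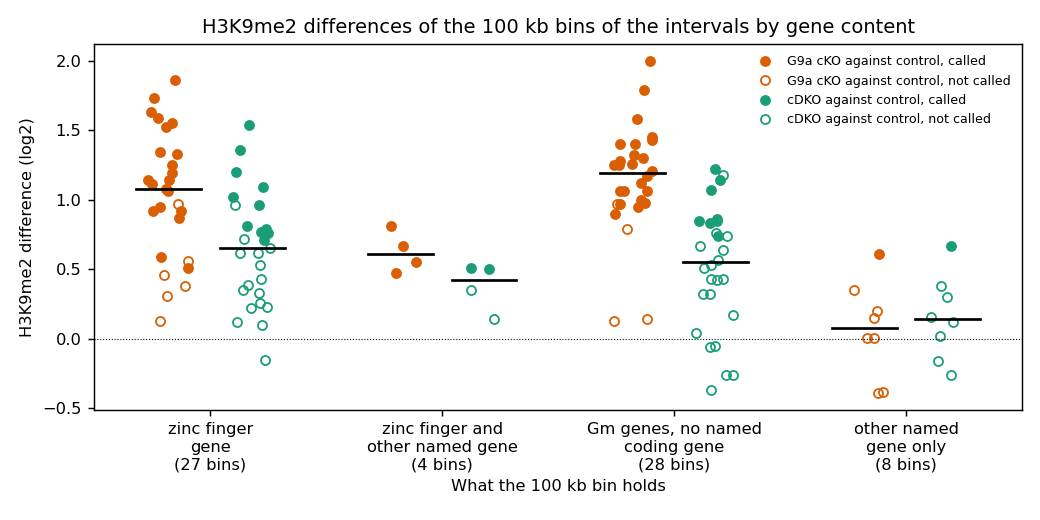
Log2 difference in H3K9me2 from Control (y axis) for each of the 67 bins of 100 kb, by the genes the bin holds (x axis), in G9a cKO (orange) and cDKO (green). Filled points passed an adjusted p of 0.05, open points did not, and bars are medians. The 8 bins with other named genes only lie around 0, with medians of 0.08 and 0.14.

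Bins of other zinc finger genes and of vomeronasal receptor genes had positive median differences in both mutants too. Bins with at least 3 olfactory receptor genes had one in G9a cKO only. Outside the intervals, 24 bins held at least 3 zinc finger genes. Their median difference was 0.74 in G9a cKO and 0.45 in cDKO, and 70.8% and 37.5% were called higher. Their median Control level was 1.01. The 82 bins with at least 3 vomeronasal receptor genes, which encode pheromone receptors, had medians of 0.58 and 0.23, with 57.3% and 18.3% called higher. The 252 bins with at least 3 olfactory receptor genes had medians of 0.14 and -0.02, with 23.8% and 5.56% called higher.

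Bins with a low Control level were called higher more often throughout the genome. Of the 67 bins, 43 had a Control level in the lowest 10% of all bins tested, under 0.795. In that range the 2512 other bins had a median difference of 0.29 in G9a cKO and 0.38 in cDKO, and 28.7% and 16.9% of them were called higher. The 43 bins of the clusters had medians of 1.21 and 0.67, and 36 and 17 of them were called. Control levels were not matched within that range. The 13 chromosome 2 bins, for example, had Control levels of 0.112 to 0.585, and 611 of the 25549 bins tested lay below 0.585. In each of the 9 other ranges of Control level, with 2 to 4 cluster bins each, the median in G9a cKO was also higher in the cluster bins than in the others. The part of the Control level in the result was not tested.

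The mutants were also tested against each other, at 10 kb, 100 kb and 1 Mb. With the main settings, differences between them in the clusters were called at 1 Mb only. Of the 9 bins of 1 Mb, 7 could be tested, 1 on chromosome 2 and 3 each on chromosomes 4 and 13. In G9a cKO 7 of 7 were called higher, where 24.9% of all 2572 bins tested were called higher and 29.9% lower. In cDKO 6 of 7 were called higher, where 19.8% of all bins were called higher and 21.7% lower. The bin that did not pass, chr13:66000001-67000000, had a cDKO difference of 0.34 (SE 0.14, limma adjusted p = 0.0677). Between the mutants, 4 of 7 were called lower in cDKO than in G9a cKO, where 4.86% of all bins were called lower and 3.97% higher. These were the chromosome 2 bin and the 3 bins of chromosome 13. The chromosome 2 bin, chr2:177000001-178000000, had levels of 0.429 and 0.398 in Control, 1.11 and 1.09 in the G9a cKO libraries and 0.766 and 0.631 in the cDKO libraries. It rose by 1.42 in G9a cKO (SE 0.11, limma adjusted p = 3.6e-05) and by 0.75 in cDKO (SE 0.11, adjusted p = 0.00108), and was lower in cDKO than in G9a cKO by a log2 difference of -0.67 (SE 0.11, adjusted p = 0.0233). Only 5 bins of 1 Mb in the genome had a larger increase in G9a cKO. The 3 bins of chromosome 4 differed between the mutants by -0.15, -0.34 and -0.27, with adjusted p of 0.16, 0.119 and 0.0746 by limma. The count of 4 fell to 1 without Control replicate 1, Control replicate 2 or cDKO replicate 1, and to 0 without cDKO replicate 2. Between the mutants limma called 0 of the 67 bins of 100 kb, where 0.149% of all bins were called lower and 0.0313% higher in cDKO. An unadjusted p under 0.05 with the lower level in cDKO was reached by 29 of them (43.3%), beside 10.5% of all bins. Voom weights in limma gave 16 calls (23.9%), all lower in cDKO, beside 3.33% of all bins called in either direction. Both G9a cKO libraries lay above both cDKO libraries in 48 of the 67, where 20.4% of all bins did.

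Single windows of 10 kb gave less. In G9a cKO 75 of the 627 windows were called higher and 0 lower, where 1.75% of all windows tested were called higher and 0.102% lower. In cDKO 0 were called by limma, as in the whole genome (0.0%). An unadjusted p under 0.05 was reached by 160 of the windows (25.5%), beside 9.0% of all windows. With voom weights 66 (10.5%) were called, beside 3.25% of all windows. Between the mutants 0 were called, as in the whole genome, and 98 (15.6%) had an unadjusted p under 0.05, beside 13.4% of all windows. By direction, 86 (13.7%) were lower in cDKO, beside 6.12% of all windows, and 12 (1.91%) were higher, beside 7.27%. Beyond the test, both G9a cKO libraries lay above both Controls in 341 of the 627 windows (54.4%), beside 21.8% of all windows. The G9a cKO count changed with the settings: it was 0 with no trend and no robust moderation, 8 after thinning and 224 with voom weights. The 224 are 35.7% of the windows, beside 11.6% of all windows called with voom weights in either direction. The share of all windows called after thinning is not given here. The 5 windows named held Zfp369, Zfp729a, Zfp738 and Zfp984, or the provisional genes Gm13231 and Gm13249. Their adjusted p of 0.0355 (limma) was the smallest of the clusters, but other windows tied with them, such as chr2:177310001-177320000 at Gm14412. Among ties the lowest start coordinates were taken, whatever the chromosome, so the 5 are not the windows of strongest difference. In the window of Zfp738, chr13:67660001-67670000, there were 37 and 83 reads in Control, 34 and 17 in the G9a cKO libraries and 11 and 9 in the cDKO libraries, which gives levels of 1.33 and 1.09, 4.59 and 3.87, and 1.61 and 1.21. The G9a cKO libraries stood apart there and the cDKO libraries lay close to Control. In the window of Zfp984, chr4:147750001-147760000, the levels were 0.752 and 0.525 in Control, 2.29 and 2.96 in the G9a cKO libraries and 3.07 and 2.69 in the cDKO libraries, with no separation between the mutants.

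Among the windows with at least 10 reads in each Control library, the highest Control level was 1.8, at Gm14412 and Gm41986 in chr2:177320001-177330000 on chromosome 2, 1.73 at Tnfrsf1b in chr4:145220001-145230000 on chromosome 4, and 1.54 at Zfp369 in chr13:65290001-65300000 on chromosome 13. The lowest were 0.276 at Gm14295 in chr2:176790001-176800000, 0.322 in chr4:145650001-145660000 and 0.294 at Gm10139 in chr13:65510001-65520000. In the Tnfrsf1b window the level was 0.835 in G9a cKO and 0.762 in cDKO, below Control, with no call (limma adjusted p = 0.243 in G9a cKO). In the Zfp369 window the Control libraries had 1.68 and 1.4, those of G9a cKO 3.78 and 1.36, and those of cDKO 2.19 and 1.88. The genotypes G9a cKO and Control overlapped there, and neither mutant was called (limma adjusted p = 0.475 and 0.808). The windows of highest Control level thus held genes of several kinds.

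Most transcript loci of the clusters had little or no RNA. Of 204 loci that start in the intervals, 71 lacked reads in all 11 libraries, beside 8635 of all 38540 loci. A mean of at least 10 RPM (reads per 1000000 reads of the library, not divided by length) was reached by 20 of the 204, beside 9091 of all loci. A mean of at least 1 RPM was reached by 59, beside 16918 of all loci. The libraries held 1458868 to 2399680 reads. All 12 oocyte markers reached 10 RPM, with sums of 13999 to 17803 RPM per library. The 10 granulosa cell markers, of which 2 reached 10 RPM, summed to 184 to 195 RPM in GKAO Control, 136 to 162 in G9a cKO, 132 to 157 in GKAQ Control and 116 to 143 in cDKO; their part in the results was not tested. Of 4 listed blood markers only Hba-a1 matched a locus, and it was at 0. Hbb-bs, Hbb-bt and Alas2 matched none and could not be assessed. In cDKO the log2 difference of Ehmt1 RNA was -2.06 (SE 0.2, limma adjusted p = 1.09e-21). Ehmt2 had a mean of 6.77 RPM in GKAO Control and 3.01 in G9a cKO, a log2 difference of -1.55 that did not pass the test (SE 0.51, limma adjusted p = 0.0971), and of -1.45 in cDKO (adjusted p = 0.121). Its reads outside the deleted part would not show the deletion, and the deleted part is not given. The ChIP libraries have no RNA of their own, so their genotype rests on the labels.

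In G9a cKO 2 of the 204 loci (0.98%) were called higher and 0 lower, where 1.05% of all 38540 loci were called higher and 0.737% lower. In cDKO 13 (6.37%) were called higher and 1 lower, where 4.32% were called higher and 2.02% lower. On chromosome 4, 6 of 50 loci were called higher in cDKO, on chromosome 13 5 of 94, and on chromosome 2 2 of 60, of which 37 had no read at all. Among loci with more than 3 reads in some library, the median log2 difference was 0.07 in G9a cKO (62 loci) and 0.47 in cDKO (67 loci), beside 0.05 and 0.13 over all such loci. Of the 43 loci named as zinc finger genes, 1 was called higher in G9a cKO and 6 in cDKO. Without G9a cKO replicate 1 limma called 0 loci in G9a cKO, and without GKAO Control replicate 2 it called 1, which was lower. The cDKO count over the 204 loci was 5 without cDKO replicate 2 and 7 without GKAQ Control replicate 3.

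Zfp600 on chromosome 4 was the gene called in both mutants. It had 5.48, 1.05 and 7.62 RPM in GKAO Control, 13.4, 11.5 and 9.89 in G9a cKO, 4.4, 4.17 and 2.46 in GKAQ Control, and 21.6 and 27.3 in cDKO. Neither mutant overlapped its Control. It rose by 1.7 on the log2 scale in G9a cKO (SE 0.43, limma adjusted p = 0.00753) and by 2.77 in cDKO (SE 0.48, adjusted p = 1.15e-06). The G9a cKO difference was 0.83 (adjusted p = 0.166) without GKAO Control replicate 2, whose level is lowest, and it had an adjusted p of 0.0786 without G9a cKO replicate 1 and of 0.0501 without G9a cKO replicate 2. The G9a cKO call was also lost with the title number as a replicate block (1.48, limma adjusted p = 0.115), with voom weights (1.66, adjusted p = 0.156) and with no trend and no robust moderation (1.7, adjusted p = 0.279). An unnamed locus on the other strand, chr4:146167522-146205732, had nearly the same reads and the same calls, and whether counting used the strand is not given. In the 100 kb bin of Zfp600, chr4:146100001-146200000, H3K9me2 also rose, by 1.52 in G9a cKO (SE 0.22, limma adjusted p = 0.00143) and 0.96 in cDKO (SE 0.22, adjusted p = 0.0328). That bin also holds Zfp987, so the value is not that of Zfp600 alone.

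Zfp979 (named 2610305D13Rik in the deposited table) was the zinc finger gene with the highest RNA level of the clusters. It had 88.4, 108 and 123 RPM in GKAO Control, 150, 135 and 131 in G9a cKO, 145, 139 and 147 in GKAQ Control, and 198 and 321 in cDKO. It rose by 0.81 in cDKO (SE 0.14, limma adjusted p = 6.39e-07), and the difference in G9a cKO was 0.39 (SE 0.12, adjusted p = 0.0701). Without cDKO replicate 2 the cDKO difference was 0.46 (adjusted p = 0.108). Zfp978 (Gm13145 in the table) had 26.4, 19.6 and 17.3 RPM in GKAQ Control and 37.6 and 50.4 in cDKO, a rise of 1.07 (SE 0.31, limma adjusted p = 0.0159). An unnamed locus of chr4:147018235-147492342, on the strand opposite to Rex2, rose by 1.11 in cDKO (SE 0.26, limma adjusted p = 0.000921). That locus also spans Zfp978 and another called locus without a name, chr4:147230284-147259338, both on the opposite strand. Whether counting used the strand is not given, so these calls may rest in part on the same reads. The loci also lie among close copies, so their counts may share reads.

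For Zfp982 (Gm13152 in the table) the 2 mutants differed from each other. It had 74, 51.3 and 71.5 RPM in GKAO Control and 46.8, 38.8 and 43.8 in G9a cKO, against 45.3, 48.3 and 45.3 in GKAQ Control and 62.1 and 74.1 in cDKO. The G9a cKO libraries lay below their Controls and the cDKO libraries above theirs. Neither difference passed the test alone, -0.59 in G9a cKO (SE 0.18, limma adjusted p = 0.0654) and 0.55 in cDKO (SE 0.21, adjusted p = 0.0908). The difference between the effects, 1.14, did (SE 0.28, adjusted p = 0.00741), 1 of 204 loci where 0.685% of all loci had a larger effect in cDKO and 0.397% a smaller one. It had an adjusted p of 0.0692 without cDKO replicate 2.

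On chromosome 13, Zfp595 had 2.51, 3.75 and 0.986 RPM in GKAQ Control and 6.83 and 10.1 in cDKO, a rise of 1.98 (SE 0.63, limma adjusted p = 0.0309). Zfp459 had no read in 3 GKAQ Control libraries and 2 and 6 reads in cDKO, at least 1.07-fold higher with the Control set at 3 reads per library (limma adjusted p = 0.0447). On chromosome 2, Zfp973 (Gm14306 in the table), whose promoter is printed above, had 1, 2 and 0 reads in GKAQ Control and 6 and 8 in cDKO (limma adjusted p = 0.00828). Gm14412 had 1.26, 2.5 and 1.97 RPM in GKAQ Control and 11.4 and 4.74 in cDKO (limma adjusted p = 0.0348, and 0.625 without cDKO replicate 1). The GKAO Control libraries, not part of these comparisons, had 2.06, 3.67 and 7.03 RPM of Zfp595 and 2.06, 3.14 and 5.86 of Gm14412. They had 1, 0 and 4 reads of Zfp459 and 0, 1 and 1 of Zfp973. In RPM, the highest of them lay above the lower cDKO library for Zfp595, Gm14412 and Zfp459, and below both cDKO libraries for Zfp973. The remaining called loci have no gene name, and the only one called lower, chr13:65056461-65058267, had 9, 6 and 13 reads in GKAQ Control and 2 and 0 in cDKO. The named genes of other families with the highest levels did not pass the test in either mutant: Nlrp4f, an oocyte gene of the NLR family, had a mean of 1914 RPM with differences of -0.01 and 0.11, and Mfn2 had 61.1 RPM with differences of 0.37 and 0.14. Zfp708, Zfp58 and Zfp748, with means of 54.1, 39.6 and 33.3 RPM, did not pass either.

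**Figure D5:**
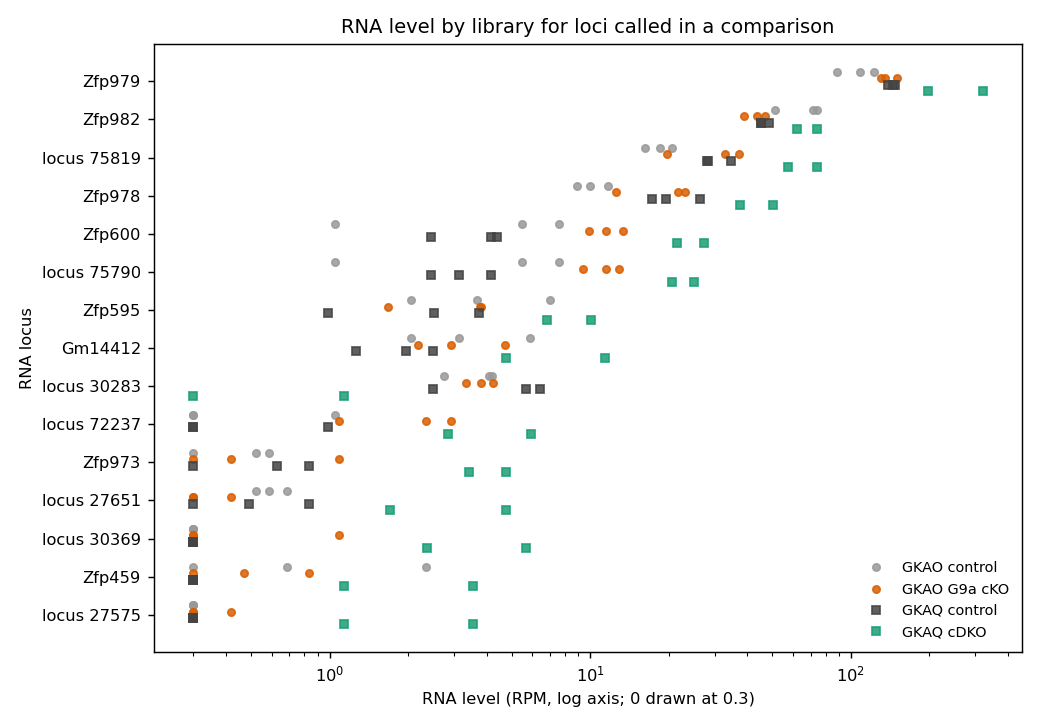
RNA level of each library in RPM (x axis, log axis, libraries without a read drawn at 0.3) for the 15 loci called in any of the comparisons (y axis, genes by RefSeq symbol, loci without a gene name by the last digits of their identifier). The cDKO libraries (green squares) lie to the right of the GKAQ Control libraries (dark squares) at all loci except 1 on chromosome 13, and several loci have under 10 reads per library.

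Genes of the silencing pathway of KRAB zinc finger proteins were listed separately, 22 in all, of which 17 matched a locus of the table. The 5 without a match, not analysed here, are 4 of the 6 listed lysine 9 methyltransferases, all except Ehmt1 and Ehmt2, and 1 of 4 genes of the HUSH complex, so the counts do not cover the other methyltransferases. In G9a cKO 1 was called higher and 0 lower, where 1.05% of all 38540 loci were called higher and 0.737% lower. In cDKO 2 were called higher and 2 lower, where 4.32% were called higher and 2.02% lower. Of the 38540 loci, 8635 had no read, so these shares are not those of expressed loci alone. The median log2 difference was 0.16 in G9a cKO and 0.05 in cDKO, beside 0.04 and 0.12 over the 16918 loci with a mean of at least 1 RPM. In cDKO the lower genes were Ehmt1 itself and Atf7ip, a cofactor of lysine 9 methylation, at -0.46 (limma adjusted p = 0.0036), and the higher ones were Daxx, a chaperone of histone H3.3, at 0.65 (adjusted p = 0.0116), and Morc2a, which works with the HUSH silencing complex, at 0.65 (adjusted p = 0.0205). Trim28, the KRAB cofactor, did not pass the test in either mutant, with 173 RPM in GKAO Control and differences of 0.18 and -0.08. The gene called in G9a cKO, at a locus assigned to Cbx3, had 0 to 2 reads in GKAO Control and 5 to 11 in G9a cKO, and at most 15 reads in any library.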

How the data were processed

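The authors deposited both tables as log2 values, with a column per library. The unit was read from the values: in each library they are log2 of reads per 1000000 reads of the library (RPM), with 0.9 read for an empty feature, and whole reads were recovered for 100% of values (within 0.1 read). Per the submitters' processing notes, the tools were Trim Galore, Bowtie2, HISAT2 2.1.0 and Bismark 0.19.0 on GRCm38; how multiply mapped reads were treated is not given in the sources used here. Of the columns of the H3K9me2 table, 4 match no sample and were not used. Input and IgG libraries were not analysed here. Of the 86 named RNA loci matched to RefSeq genes of GRCm38.p6, 81 overlap the gene's position there; strand use in counting is not given.

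Reads of 10 kb windows were summed to 100 kb and 1 Mb bins (log2 with a pseudocount of 0.5 read). limma 3.58.1 in R 4.3.3 was fitted over all features with a trend and robust moderation, 1 mean per group, and Benjamini-Hochberg adjustment; calls are at 0.05. Windows and RNA loci used the deposited log2 values. Alternatives were other filters, pseudocounts, centring, voom weights, thinning, no trend, a replicate block for RNA and leaving out each library. Scripts were tested on simulated data. Promoter distances used edlib 1.3.9.post1. Each interval's named windows were the 2 highest and 2 lowest in Control. Other windows, bins and RNA loci were named by smallest adjusted p, and RNA loci also by level. Windows with tied adjusted p were taken by start coordinate. Further bins were named after their values were seen. The members and lists were chosen with earlier results of these data known.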

Additional observations from a re-analysis of the deposited data

Results flagged for a closer look

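In 5 results the 2 mutants differed from each other by a test of the difference itself. For RNA of Zfp982 (Gm13152) the cDKO effect minus the G9a cKO effect was 1.14 on the log2 scale. For H3K9me2 the difference of cDKO from G9a cKO was -0.67 in the 1 Mb bin of chromosome 2 that starts at 177 Mb, and -0.42, -0.59 and -0.35 in the bins of chromosome 13 that start at 65, 66 and 67 Mb. The last of these extends beyond the interval: 80 of its 100 windows lie in it.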

How the results depend on the processing

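The G9a cKO calls at 1 Mb (7 of 7) did not change without any 1 library, and those at 100 kb ranged from 32 to 51 without 1 library. Without 1 library the cDKO calls ranged from 0 to 29 at 100 kb and from 4 to 7 at 1 Mb. Between the mutants they ranged from 0 to 3 at 100 kb and from 0 to 5 at 1 Mb. For windows of 10 kb the ranges were 0 to 58, 0 to 30 and 0 to 3 in the same order of comparisons. RNA calls ranged from 0 to 3 in G9a cKO, from 5 to 16 in cDKO and from 1 to 104 for the difference, where the 104 came without GKAQ Control replicate 1 and 71 of these loci have no read.

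Window calls in G9a cKO were 360 with all windows of the table, 26 with a mean of at least 10 reads, 224 with voom weights, 8 after thinning, 125 after centring and 0 with no trend and no robust moderation. In cDKO they were 269 with all windows and 66 with voom weights. Over the whole genome, voom weights called 11.6% of windows in G9a cKO and 3.25% in cDKO. The genome shares at the other settings are not given here. Of the calls with all windows of the table, 215 were windows without a read in all 6 libraries, whose values differ only by library depth. At 100 kb voom weights gave 37 calls in cDKO (55.2%, beside 23.1% of all bins). They gave 16 between the mutants (23.9%, beside 3.33%), where thinning gave 1, centring 2 and a pseudocount of 2 reads 2.

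RNA calls in G9a cKO were 0 with voom weights, with no trend, and with the title number as a replicate block, against 2 in the 6 GKAO libraries without the block; for Zfp600 the block gave 1.48 (limma adjusted p = 0.115). The labels do not say what the number marks. With no trend there were 9 calls in cDKO and 0 for the difference, and voom weights gave 0 for the difference.

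The log2 ratio of the chromosome 2 levels with the median over windows was 1.61 in G9a cKO and -0.91 between the mutants. For chromosome 4 in G9a cKO it was 0.71 with the median, 0.73 with windows read in every library and 0.93 with the ends trimmed by 200 kb. Leaving out 1 library, the chromosome 2 ratio ranged from 1.38 to 1.5 in G9a cKO, from 0.62 to 0.9 in cDKO and from -0.82 to -0.55 between them. For chromosome 4 these ranges were 0.75 to 0.78, 0.47 to 0.61 and -0.3 to -0.15, and for chromosome 13 0.66 to 0.84, 0.19 to 0.43 and -0.56 to -0.32. None of the log2 differences and ratios recomputed here reversed its sign. Counts of calls have no sign and could not reverse, but the RNA call in G9a cKO without GKAO Control replicate 2 was a lower one. The causes of the changes were not tested except where stated.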
